A study of Saccharomyces cerevisiae with 17 samples.

Results

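Yeast sampled 30 h into propagation was compared with yeast sampled at its start, on 3 arrays at each time. The comparison uses these 6 of the 17 arrays of the series, chosen by the stage and time in their titles, and 5449 Saccharomyces cerevisiae genes were measured on each. The yeast was the lager brewing strain CB11, grown with oxygen at 20 °C in a 140 hL vessel of wort of 17 degrees Plato that held 0.5 mg/L zinc and 7 to 8 mg/L dissolved oxygen. Before that it had been grown aerobically in a smaller vessel. The remaining arrays come from 8 h of propagation and from a fermentation in a 3275 hL vessel. The arrays named A, B and C below are samples of 1 vessel at each time. For each gene the p-values use 1 spread, estimated over all 6 groups of the series, the fermentation arrays included. It is only the spread between samples of the same stage and time, which may be technical. Time cannot be told apart from anything else that differed between the sampling times.

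Propagation is the aerated growth of brewing yeast before it is pitched into a fermentation. In a growing yeast cell a large share of transcription goes to ribosomes and the factors that load and run them, and transcripts of this machinery fall when growth slows. Yeast in sugar-rich wort ferments even with oxygen present, and genes for respiration, storage carbohydrates, alternative sugars and stress protection are held low by glucose and come up as sugar declines. Oxygen is needed for sterol and unsaturated fatty acid synthesis, and a separate set of hypoxic genes, among them the seripauperin wall proteins, is known to be transcribed when oxygen or heme is scarce.

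By the median level of the meiosis and haploid mating markers described below, the 6 later propagation arrays (8 h and 30 h) separated from the other 11. The meiosis median was 7.18 to 8.13 on these 6, 4.61 to 5.96 at 0 h and 4.67 to 5.9 on fermentation arrays. The mating median was 7.24 to 7.96, 5.15 to 6.17 and 5.27 to 5.95. The correlations and control signals that follow are for propagation arrays only. Across genes, values correlated at 0.384 to 0.491 between 30 h and 0 h arrays, at 0.881 to 0.935 between 30 h and 8 h arrays and at 0.935 to 0.959 among the 30 h arrays, which is a description across genes that are not independent. Labelled control transcripts, added in fixed amounts before hybridization, had a mean log2 signal over 27 probe sets of 12.02 to 12.53 at 30 h, but of 10.58, 4.82 and 9.55 on 0 h arrays A, B and C. Ribosomal RNA probe sets (12) averaged 9.13 on 0 h array B and 3.74 to 4.66 on the other 5 arrays. The 3' minus 5' signal of 5 control genes, which grows as RNA is degraded, was 4.36 on 0 h array A, 3.03 on C, 1.12 on B and 1.34 to 1.58 at 30 h. Array A also differed from its companions, with correlations down to 0.814 among the 0 h arrays against 0.983 at best. Probe sets for another yeast, Schizosaccharomyces pombe, had medians of 3.40 to 3.68 on all 6 arrays. Their 95th percentile, 4.63 to 5.27, is used below as a bound: a gene at or under it on all 3 arrays of a time has a bounded level there, and its fold is given as "at least". Some genes described below had only part of their arrays under it: CIT3, CRF1, FAR1 and SPS4 on 2 of the 3 arrays at 0 h, CCS1, MAL33 and TIF5 on 2 at 30 h, GIT1, HXT8 and JLP1 on 1 at 0 h, and FET3, HTS1, PGM2 and TIM9 on 1 at 30 h. Their differences are as fitted and rest partly on signal not above that of the other yeast. The part of these array differences in the results below was not tested, and list counts or medians that turn direction or move by 1.5 times or more without array A are given both ways.

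Of the 5449 genes, 3669 (67.3%) changed at a limma adjusted p under 0.05, 1559 (28.6%) upward and 2110 (38.7%) downward, and 3031 (55.6%) changed at least 2-fold. The log2 difference over all genes had a median of -0.25, which recentring the arrays on their gene medians moved to -0.07 and quantile normalization to -0.10. Arrays of the 2 times did not overlap for 3461 genes (63.5%), with 30 h above 0 h for 1524 (28%) and below it for 1937 (35.5%). With so many genes called, a share of members near these percentages says nothing about a list. This holds for every list below, also where the percentages are not repeated. Against 8 h, whose arrays lie close to those of 30 h, 273 genes (5.01%) changed, 168 upward (3.08%) and 105 downward (1.93%). That count was 698 without 0 h array A, which enters through the shared variance, and 149 to 175 without 1 of the 30 h arrays. From 0 h to 8 h, 3673 genes changed (67.4%), 1325 upward (24.3%) and 2348 downward (43.1%). These comparisons share arrays, so their values are given side by side and not counted as support for each other. Below, "rose" and "fell" refer to 30 h against 0 h unless 8 h is named, differences are in log2 units, each ± its standard error from limma (SE), and 1 unit is 2-fold.

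**Figure D1:**
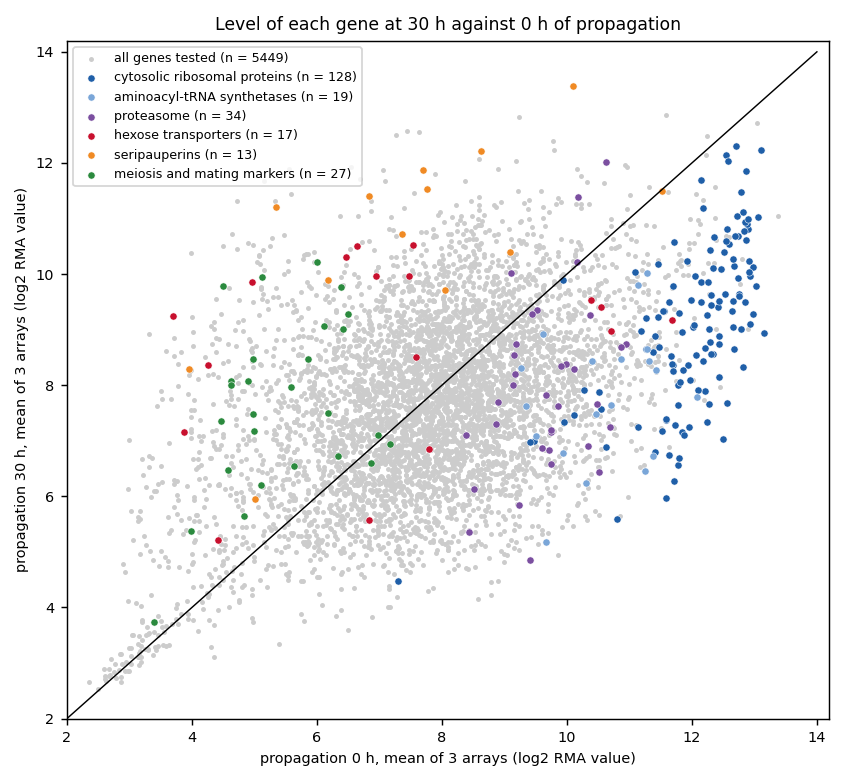
Mean log2 RMA value of each gene at 30 h (vertical) against 0 h of propagation (horizontal), 3 arrays each, 1 point per gene; the line marks equal values and colours mark gene lists. Ribosomal protein genes lie below the line at the bright end, whereas seripauperin, meiosis and mating genes and most hexose transporter genes lie above it.

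The direction of the difference varied with how bright a gene was elsewhere. Genes were split into 4 bins of nearly equal size by their mean level on the 8 fermentation arrays. These arrays are not compared here but enter the variance of the fit. They are also among the 11 that separated from the 8 h and 30 h arrays, so the bins are not independent of that split. Its part in the pattern was not tested. In the dimmest bin 714 of 1363 genes rose and 187 fell, with a median difference of 0.82. In the brightest bin 119 of 1362 rose and 911 fell, with a median of -1.42. The middle bins had medians of -0.13 and -0.44. On the bound from the other yeast, 116 genes were bounded on all 0 h arrays and above it on all 30 h arrays, and 58 were the reverse. Leaving out the dimmest 25% of genes removed many rising members, so that the rises counted went from 11 to 6 for hexose transporters, 17 to 8 for mitosis, 11 to 6 for cyclins, 13 to 7 for thiamine and pyridoxine and 14 to 9 for splicing.

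**Figure D2:**
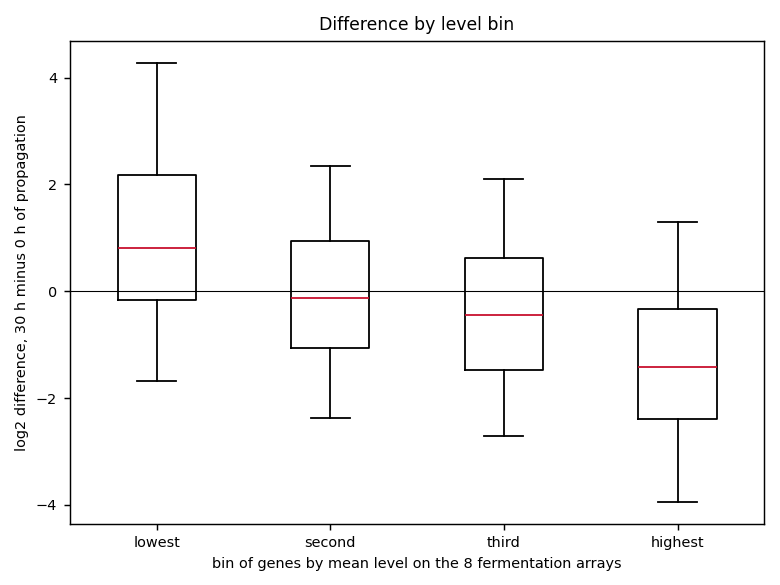
Log2 difference between 30 h and 0 h of propagation for genes in 4 bins of mean level on the 8 fermentation arrays; boxes span the 25th to 75th percentiles, red lines are medians (0.82, -0.13, -0.44 and -1.42) and whiskers reach the 5th and 95th percentiles. The boxes shift downward from the dimmest to the brightest bin.

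The transcripts for making protein were the most uniformly lower. Of the ribosomal protein genes, 73 of 75 for the large subunit and 51 of 53 for the small subunit fell and none rose, although quantile normalization put 2 and 1 of them higher. Their medians were -2.95 and -2.64. The median level of the large subunit genes was 11.65, 12.48 and 12.43 on the 0 h arrays, 10.41, 10.28 and 10.02 at 8 h and 8.93, 9.00 and 8.99 at 30 h. Levels were thus well apart at each of the 3 times. Between 8 h and 30 h, 40 of the 75 and 24 of the 53 fell again.

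RPL15A, which encodes a large subunit protein, read 12.15, 12.66 and 12.67 on 0 h arrays A, B and C, 9.65, 9.47 and 9.82 at 8 h, and 6.91, 7.02 and 7.15 at 30 h. It differed by -5.46 ± 0.23 (SE, n = 3 and 3; adjusted p = 9.9e-11), with no overlap at any time. RPP0, whose product anchors the stalk that binds translation factors, read 10.48, 12.14 and 12.29 at 0 h and 7.15, 6.46 and 6.66 at 30 h, a difference of -4.89 ± 0.40. Its lowest 0 h value, on array A, still lay above every 30 h value. RPP1A, another stalk protein gene, differed by -5.20 ± 0.24.

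RPS31 encodes a small subunit protein fused to ubiquitin and had most of its fall after 8 h. It read 12.97, 12.90 and 12.93 at 0 h, 12.56, 12.23 and 12.00 at 8 h, and 9.21, 9.55 and 8.57 at 30 h. The difference was -3.82 ± 0.25 against 0 h (adjusted p = 2.59e-09) and -3.15 against 8 h. RPL30, whose protein represses splicing of its own transcript, held 11.83 to 12.18 at 8 h and then 8.79 to 9.04 at 30 h, with differences of -4.22 ± 0.20 and -3.02. RPS28A followed with -4.90 and -3.04, RPS2 with -4.49 and -2.47, and RPS11A with -3.91 and -2.44.

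The ribosomal protein genes also spread out as they fell. The SD of members' mean levels was 0.92 at 0 h and 1.50 at 30 h for the large subunit, and 0.78 and 1.46 for the small subunit. RPL34A, at 11.52, 11.68 and 11.54 at 0 h, was at 5.57, 5.87 and 6.47 at 30 h, a difference of -5.61 ± 0.31. RPL34B, its paralogue for the same subunit protein, differed by -2.68 ± 0.28. Paralogues with near-identical sequence can share probe signal, so the split between them is uncertain. The 4 members that did not pass were RPL42B (-0.40), RPL20B (-0.45), RPS14B (-0.04) and RPS30A (-0.39), and RPL20B passed at -0.89 without 0 h array A and at -3.73 on another probe set. After quantile normalization RPL42B and RPL20B instead passed as higher, by 0.62 and 0.56.

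Factors that act with the ribosome moved the same way. Of 38 initiation and elongation factor genes 34 fell and none passed upward, except 1 under quantile normalization, with a median of -2.76. STM1, which binds ribosomes and preserves them when nutrients run out, read 10.30, 12.29 and 12.33 at 0 h and 6.94, 7.01 and 6.68 at 30 h (-4.76 ± 0.44, adjusted p = 7.78e-08). Its 30 h arrays lay below all 0 h arrays, and against 8 h it differed by -2.37. SUI2, the alpha subunit of the initiation factor that brings the first tRNA, differed by -4.35 ± 0.27, TIF5, which triggers GTP hydrolysis on that factor, by -4.48 ± 0.49, and TIF35, a subunit of the scaffold factor eIF3, by -4.28 ± 0.28.

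Aminoacyl-tRNA synthetases charge tRNAs with amino acids, and 17 of the 19 cytosolic ones fell, with a median of -2.87 and none higher. GRS1 for glycine read 11.24, 11.46 and 11.44 at 0 h and 6.69, 6.89 and 6.62 at 30 h (-4.64 ± 0.21, adjusted p = 1.02e-10). The 3 arrays of each time lay within 0.3 of each other for this gene. THS1 for threonine differed by -4.79 ± 0.43, HTS1 for histidine by -4.47 ± 0.45 and GUS1 for glutamate by -4.30 ± 0.29.

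Ribosome assembly and transcription of ribosomal RNA were lower as well. Of 131 ribosome biogenesis genes 98 fell and 7 rose (median -1.62). The 7 rises became 4 without 30 h array C. Between 8 h and 30 h only 2 of the 131 passed, both upward. ARX1, an export and maturation factor of the large subunit, read 9.71, 10.87 and 10.79 at 0 h and 5.42, 5.49 and 6.31 at 30 h (-4.71 ± 0.35), and NOP56, a core protein of the box C/D particles that methylate ribosomal RNA, differed by -4.18 ± 0.43. MAK11, a large subunit assembly factor, was bounded at 30 h and was at least 11.1-fold lower (adjusted p = 5.93e-09). RRP36, needed for early cleavage of the ribosomal RNA precursor, went the other way by 2.94 ± 0.43.

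Among subunits and factors of RNA polymerases I and III, which make ribosomal RNA and tRNA, 16 of 21 fell and none rose. RET1, a large polymerase III subunit, differed by -3.98 ± 0.36, RPC19, shared by both enzymes, by -3.86 ± 0.28, and RRN3, which recruits polymerase I to its promoter, by -2.41 ± 0.28. RNA polymerase II, which transcribes messenger RNA, was lower too, with 8 of 10 subunit genes falling, led by RPB11 at -3.01 ± 0.28.

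**Figure D3:**
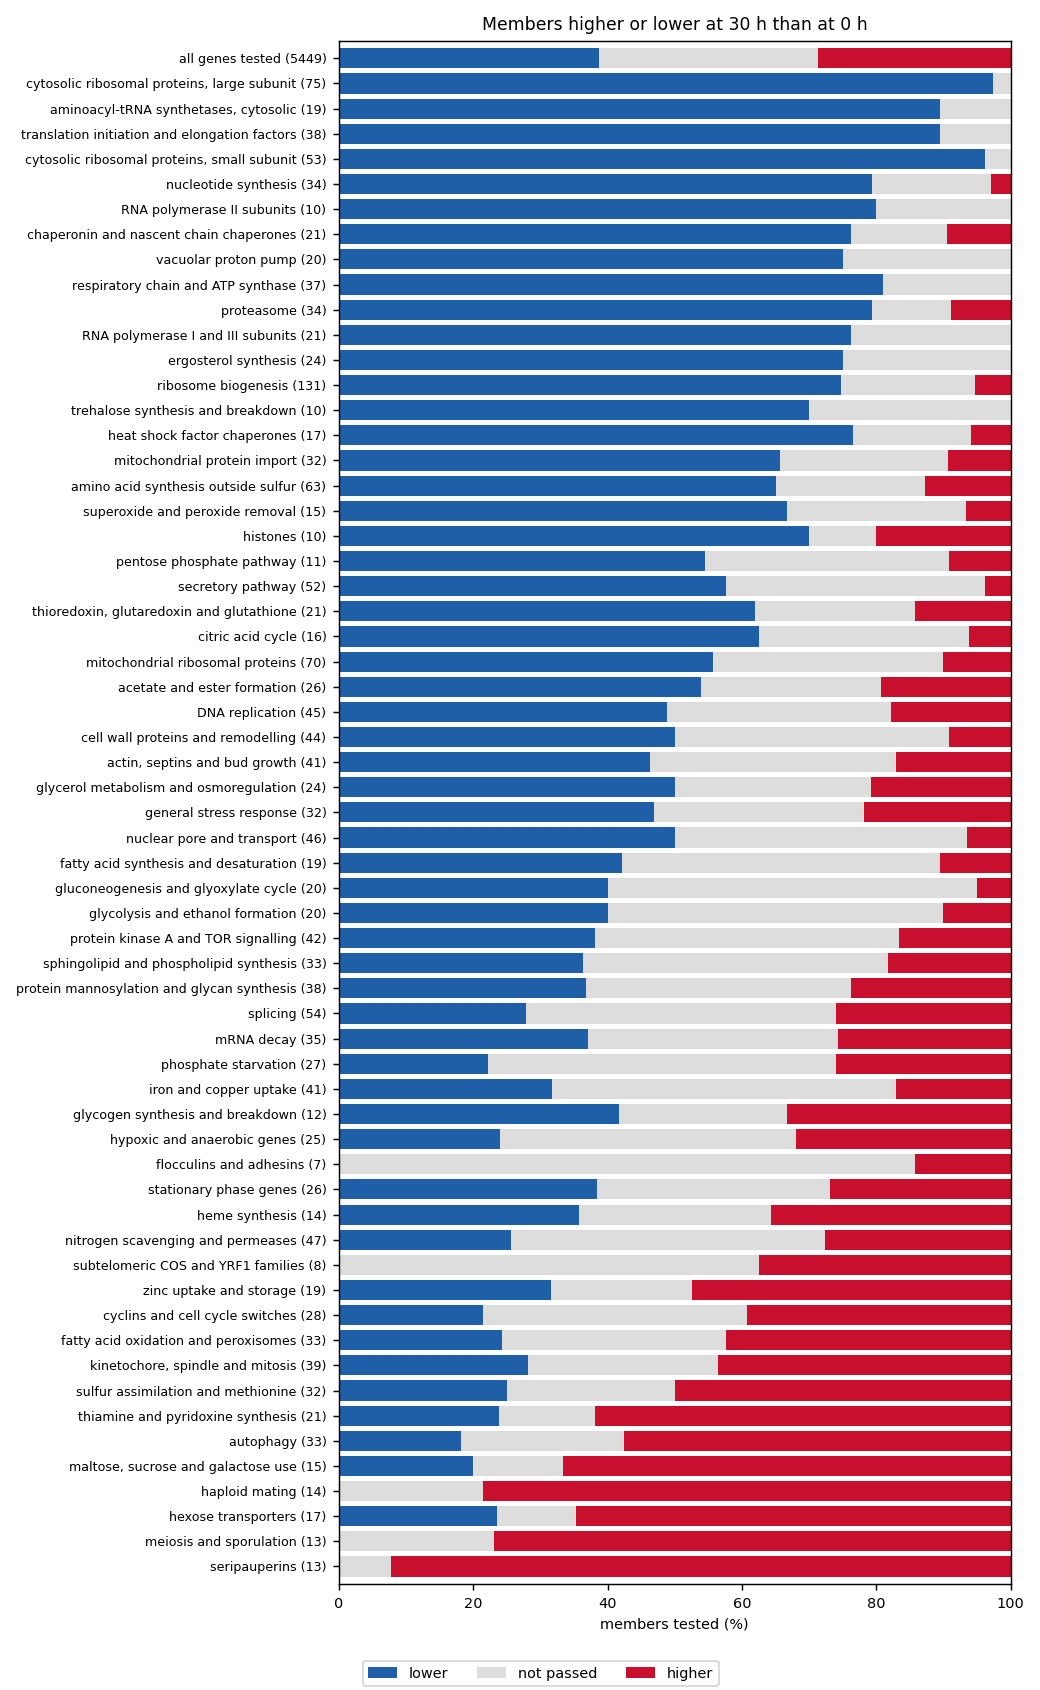
Share of tested members that were lower (blue), not passed (grey) or higher (red) at 30 h than at 0 h of propagation, for all genes and each gene list, ordered by median difference with the number tested in brackets. Protein synthesis lists are almost all blue, and seripauperins, meiosis and mating genes and hexose transporters are mostly red.

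Synthesis of building blocks was lower for nucleotides and, less uniformly, for amino acids. Of 34 nucleotide synthesis genes 27 fell and 1 rose (median -2.23), with 2 or 3 rising when 0 h array B, 0 h array C or 30 h array A was left out. GUA1, which makes GMP, read 12.16, 12.18 and 12.25 at 0 h and 7.04, 8.21 and 7.97 at 30 h (-4.46 ± 0.30, adjusted p = 2.73e-09). URA10, the minor orotate phosphoribosyltransferase, was the riser at 1.47 ± 0.33. Of 63 amino acid synthesis genes outside the sulfur branch 41 fell and 8 rose (median -1.31).

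Lysine synthesis stood at the low end of that list. LYS12, homoisocitrate dehydrogenase, read 10.29, 11.27 and 11.38 at 0 h, 7.41 to 7.88 at 8 h and 6.01, 5.91 and 6.02 at 30 h. It differed by -5.00 ± 0.27 against 0 h (adjusted p = 4.4e-10) and by -1.64 against 8 h. LYS4 and LYS2, which act before and after it in the pathway, differed by -3.77 ± 0.41 and -3.62 ± 0.26. HIS6, in histidine synthesis, read 7.90 to 8.01 at 0 h and 10.93 to 11.15 at 30 h, a difference of 3.14 ± 0.24.

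Sulfur genes were divided. Of 32 sulfur assimilation and methionine genes 16 rose and 8 fell, with a median of 0.63, or 14 and 8 with a median of 0.39 without 0 h array A. SUL1, a plasma membrane sulfate permease, read 6.11, 5.01 and 5.15 at 0 h, 7.51, 7.08 and 6.54 at 8 h, and 7.94, 8.59 and 8.46 at 30 h. It rose by 2.91 ± 0.36 (adjusted p = 1.92e-06) and by 1.29 against 8 h. JLP1, which releases sulfite from taurine and related sulfonates, rose by 4.32 ± 0.28, the low-affinity methionine permease gene MUP3 by 2.89 ± 0.22, and MET4, the activator of the pathway, by 2.40 ± 0.35. SAM1, one of a pair of S-adenosylmethionine synthetases, read 7.84, 11.19 and 10.63 at 0 h and 6.12, 6.59 and 6.31 at 30 h (-3.55 ± 0.57), and its 0 h array A was far below the other two.

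Glycolysis depended strongly on 0 h array A. With all arrays, 8 of its 20 genes fell, which is near the share of all genes (38.7%), 2 rose and the median was -0.52. Without 0 h array A, 15 fell, 2 rose and the median was -1.17. Quantile normalization put 4 higher, and leaving out 30 h array B left 1 higher. The median level of the list was 8.99 on array A against 11.33 and 11.12 on B and C, and 10.21, 9.82 and 9.86 at 30 h. TDH3, the main glyceraldehyde-3-phosphate dehydrogenase, shows this for 1 gene: it read 8.05, 11.97 and 11.86 at 0 h and 11.03, 10.30 and 10.88 at 30 h. Its difference was 0.11 ± 0.69 (not passing) with array A and -1.18 without it (adjusted p = 0.00251). ENO2, an enolase, likewise moved from -0.15 to -1.04.

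For 4 named steps the fall did not rest on that array. PDC1, the main pyruvate decarboxylase and the first step from pyruvate to ethanol, read 11.01, 11.74 and 11.47 at 0 h, 11.19, 11.53 and 11.87 at 8 h, and 9.88, 9.09 and 9.12 at 30 h. It differed by -2.04 ± 0.26 against 0 h (adjusted p = 3.09e-06) and by -2.17 against 8 h, so its 30 h arrays were below both earlier times. PGI1, phosphoglucose isomerase, differed by -2.60 ± 0.33 and -2.15, ADH1, the main fermentative alcohol dehydrogenase, by -1.90 ± 0.35 and -1.56, and FBA1, aldolase, by -1.77 ± 0.38 and -1.97. For FBA1 the lowest 0 h value, 10.63 on array A, was barely above the highest 30 h value of 10.59. PYK2, a pyruvate kinase isozyme repressed by glucose, rose from 8.09 to 8.55 at 0 h to 11.39 to 11.90 at 30 h (3.30 ± 0.26). CDC19, the main pyruvate kinase, differed by 0.21 ± 0.29 and did not pass, but passed at 1.12 after quantile normalization. In all, 6 of the 20 genes fell and none rose between 8 h and 30 h.

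**Figure D4:**
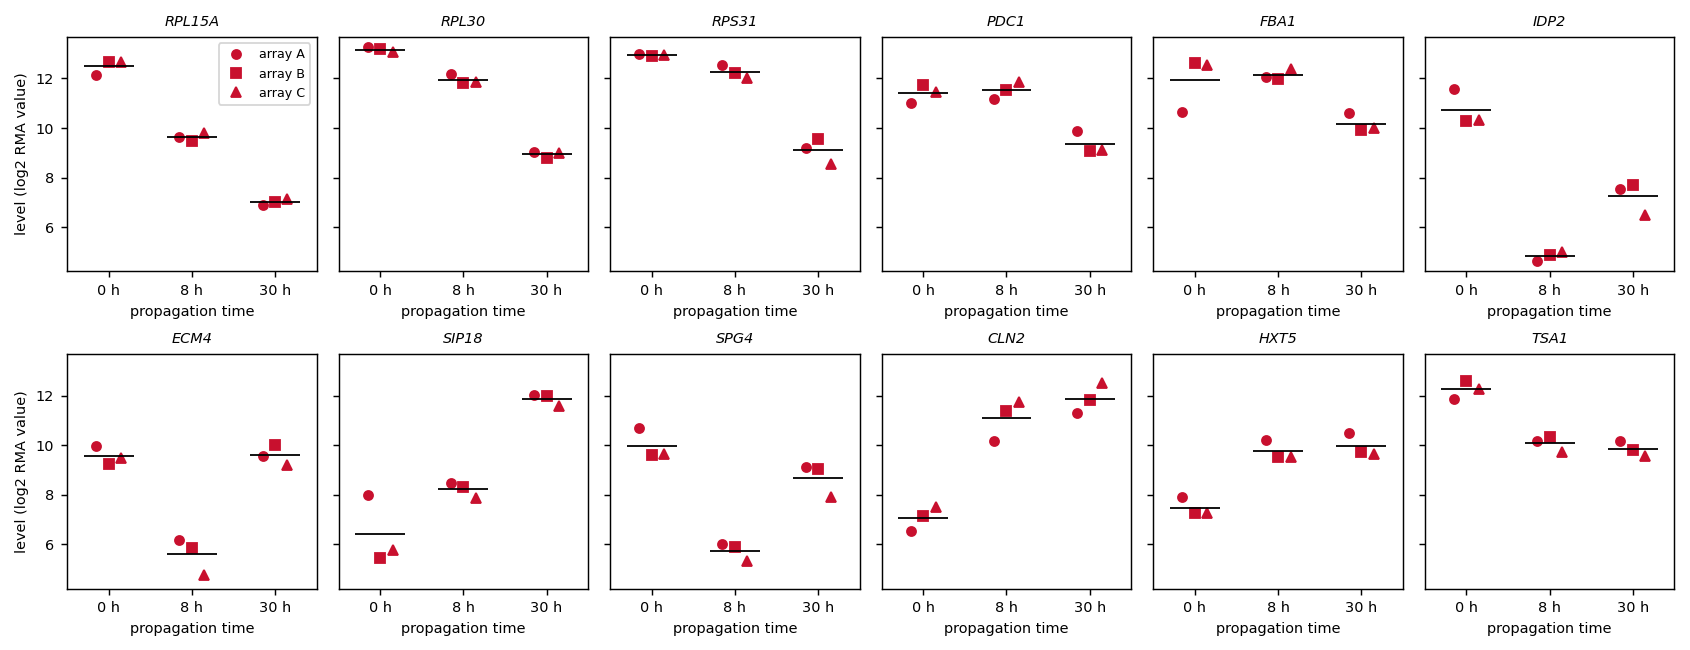
Log2 RMA value of 12 genes on each propagation array at 0, 8 and 30 h; symbols mark arrays A, B and C and lines mark the mean of 3 arrays. RPS31, PDC1 and FBA1 fall mainly after 8 h, SIP18 rises mainly after 8 h, and ECM4, SPG4 and IDP2 are lowest at 8 h.

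Hexose transporter genes split between the abundant carriers and the rest of the family. Of 17 genes 11 rose and 4 fell, with a median of 2.49, and 6 fell without 0 h array A. HXT2, an inducible high-affinity carrier, read 10.42, 12.37 and 12.25 at 0 h and 9.30, 9.13 and 9.09 at 30 h (-2.50 ± 0.40, adjusted p = 3.61e-05). HXT1, the low-affinity carrier induced by high glucose, differed by -1.73 ± 0.33. HXT3 and HXT4 did not pass at -0.85 and -1.13, and passed at -1.54 and -1.82 without 0 h array A.

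Risers were carriers with low signal at 0 h. HXT8 read 5.34, 4.55 and 4.98 at 0 h and 10.14, 9.47 and 9.97 at 30 h (4.90 ± 0.26, adjusted p = 4.07e-10). HXT14 and HXT10 were bounded at 0 h and were at least 20.5-fold and 11.1-fold higher. HXT5, a carrier known from slow growth and stationary cells, read 7.90, 7.27 and 7.25 at 0 h and 10.51, 9.73 and 9.66 at 30 h, a rise of 2.49 ± 0.32. HXT9 rose by 3.86 on its brighter probe set and differed by -1.06 on the dimmer one, so its direction is not settled. Members of this family are similar in sequence, so signal may be shared among them.

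Genes for other sugars were mostly higher, with 10 of 15 rising and 3 falling (median 1.29). GAL1, galactokinase, read 6.73, 4.90 and 5.86 at 0 h, 10.09 to 10.51 at 8 h, and 10.44, 10.51 and 10.12 at 30 h (4.53 ± 0.33, adjusted p = 6.09e-09). GAL10, the next step of galactose use, was bounded at 0 h and was at least 5.6-fold higher. MAL11, a maltose transporter gene, read 8.03, 8.51 and 8.85 at 0 h and 10.87, 10.37 and 11.06 at 30 h, a rise of 2.30 ± 0.26. SUC2, invertase, rose by 1.04 ± 0.27. MAL33, a maltose activator gene, differed by -1.65 ± 0.24. Maltose genes occur in near-identical copies, so single loci are uncertain.

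Respiratory metabolism was lower at 30 h than at 0 h, but parts of it were higher than at 8 h. Of 37 respiratory chain and ATP synthase genes 30 fell (median -1.90). None rose, except 1 after recentring, with array weights or without 0 h array A, and 2 after quantile normalization. Against 8 h, 4 of them were higher and none lower (median 0.53). COX8, a cytochrome c oxidase subunit, read 10.24, 11.03 and 10.75 at 0 h, 6.61, 6.87 and 6.29 at 8 h, and 8.07, 7.41 and 7.13 at 30 h (-3.14 ± 0.28, adjusted p = 4.23e-08). NDE1, which feeds cytosolic NADH into the chain, differed by -2.93 ± 0.26 and ATP7, in the stator of the ATP synthase, by -2.88 ± 0.23.

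The citric acid cycle had 10 of 16 genes lower and 1 higher (median -1.08), and 15 lower without 0 h array A. IDH2, of mitochondrial isocitrate dehydrogenase, differed by -2.45 ± 0.25. CIT3, the minor mitochondrial citrate synthase, rose by 1.81 ± 0.21. In the glyoxylate and gluconeogenesis list 8 of 20 fell and 1 rose, and without 0 h array A 12 fell and 2 rose. The 8 falls are near the share of all genes (38.7%) and say nothing about that list. ICL1, isocitrate lyase, was bounded at 30 h and was at least 8.46-fold lower (adjusted p = 8.26e-08). IDP2, the cytosolic NADP isocitrate dehydrogenase, read 11.56, 10.29 and 10.32 at 0 h, 4.65, 4.87 and 4.99 at 8 h, and 7.53, 7.71 and 6.48 at 30 h. It differed by -3.48 ± 0.34 against 0 h and by 2.40 against 8 h, with no overlap between any of the times. All 3 of its 8 h values lay under the other yeast's 95th percentile there (5.45, 5.3 and 5.63). The 2.40 is thus a fitted value against a level not above that signal. PCK1, which makes phosphoenolpyruvate for gluconeogenesis, differed by -1.56 ± 0.31 against 0 h and by 1.54 against 8 h. Altogether 4 members of that list rose from 8 h to 30 h and none fell.

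Mitochondria-building genes fell in part. Of 70 mitochondrial ribosomal protein genes 39 fell and 7 rose, the latter 3 without 0 h array A, 4 without 30 h array B and 1 in a fit of the 6 arrays alone. The largest of these rises, KGD4 at 1.36 ± 0.33, encodes a 2-oxoglutarate dehydrogenase subunit and not a ribosomal protein. MRPL20, bounded at 30 h, was at least 6.32-fold lower. Of 32 protein import genes 21 fell and 3 rose, or 24 and 2 without 0 h array A. TIM9, a chaperone of the intermembrane space, was among the falls and read 9.42, 8.97 and 9.17 at 0 h and 5.06, 5.20 and 5.24 at 30 h (-4.02 ± 0.21).

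Storage carbohydrates were lower on the trehalose side. Of 10 trehalose genes 7 fell and none rose (median -1.59). PGM2, the main phosphoglucomutase, read 7.93, 8.80 and 9.40 at 0 h and 5.72, 5.81 and 4.96 at 30 h (-3.22 ± 0.36, adjusted p = 6.11e-07), with -1.62 against 8 h. TPS1, trehalose-6-phosphate synthase, differed by -1.65 ± 0.23 and NTH1, the neutral trehalase, by -1.99 ± 0.25. For glycogen 5 of 12 fell and 4 rose (median -0.07), which turned to 4 and 5 (median 0.13) without 0 h array A, with GSY1, a glycogen synthase, at -2.06 ± 0.23 and SGA1, a glucoamylase known from sporulating cells, at 2.84 ± 0.37. The pentose phosphate list had 6 of 11 lower, led by the transketolase TKL1 at -2.44 ± 0.50, while the minor transketolase TKL2 rose by 1.72 ± 0.27.

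The general stress and stationary phase lists both held rises and falls. Of 32 general stress genes 15 fell and 7 rose (median -0.67), and of 26 stationary phase genes 10 fell and 7 rose (median 0.08). Over all genes 38.7% fell and 28.6% rose, so the stationary phase counts say nothing about that list. Without 0 h array A the general stress counts were 20 and 8 (median -1.09), and the stationary phase counts 11 and 9 with the median turned to -0.09. Between 8 h and 30 h, 5 and 6 of them rose and none fell. SIP18 encodes a hydrophilic protein of desiccated cells. Its rise was the largest among named genes, as defined in the processing section, in the top 25% of mean level over the 6 arrays. That mean includes the 30 h arrays, where SIP18 was high. At 0 h alone it averaged 6.41, where the median of all genes was 7.74 to 8.05. It read 8.00, 5.45 and 5.78 at 0 h, 8.49, 8.32 and 7.86 at 8 h, and 12.03, 12.00 and 11.57 at 30 h. The rise was 5.46 ± 0.53 against 0 h (adjusted p = 1.22e-07) and 3.64 against 8 h, and every 30 h array was above all earlier ones.

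Several stress and acetate genes were lowest at 8 h. ECM4, an omega class glutathione transferase, read 9.97, 9.24 and 9.48 at 0 h, 6.18, 5.87 and 4.76 at 8 h, and 9.58, 10.01 and 9.22 at 30 h. It did not pass against 0 h (0.04 ± 0.36, adjusted p = 0.923) and rose by 4.00 against 8 h (adjusted p = 3.54e-06). SPG4, named for survival in stationary phase, differed by -1.29 ± 0.40 and 2.95, and its call against 0 h was lost without 30 h array C (adjusted p = 0.0637). Also ALD6, the main cytosolic aldehyde dehydrogenase of acetate formation, differed by -2.46 ± 0.39 and 1.72. ECM4, SPG4 and ALD6 were picked out after their values were seen, as were further genes named in the processing section. GTO1, a peroxisomal transferase of the same class as ECM4, rose by 1.69 ± 0.33 and 2.07. At 8 h, GTO1 on arrays B and C, and ECM4 and SPG4 on array C, lay under the other yeast's 95th percentile (5.3 and 5.63). Their differences against 8 h rest partly on signal not above that of the other yeast.

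STF2, a hydrophilin gene that also acts with the ATP synthase, was in the falling part of the stress list. It read 11.96, 11.49 and 11.67 at 0 h and 8.92, 8.24 and 7.58 at 30 h (-3.46 ± 0.34, adjusted p = 1.58e-07). PNC1, which converts nicotinamide and responds to many stresses, differed by -2.66 ± 0.22, and DDR48, a DNA damage and heat responsive gene, by -2.41 ± 0.21. HSP12, a small membrane-associated heat shock protein, did not pass against 0 h (0.25 ± 0.22), although it did at 1.23 after quantile normalization, and rose by 0.94 against 8 h. HSP26, a small aggregation-preventing chaperone, read 5.95, 10.14 and 9.96 at 0 h and 7.73, 6.92 and 6.11 at 30 h. It did not pass (-1.76, adjusted p = 0.0663) and passed at -3.13 without 0 h array A.

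Protein folding and antioxidant genes were mainly lower. Of 17 heat shock factor chaperones 13 fell and 1 rose, of 21 chaperonin and nascent chain chaperones 16 fell and 2 rose, and the lists had medians of -1.55 and -1.93. EGD1, a subunit of the complex that shields new chains at the ribosome, read 12.20, 12.06 and 12.24 at 0 h and 7.85, 7.99 and 7.85 at 30 h (-4.27 ± 0.19, adjusted p = 1.02e-10). BTT1, its less abundant counterpart, rose by 1.86 ± 0.28. SBA1, a co-chaperone of HSP90, differed by -4.86 ± 0.34 and SSE1, the exchange factor of HSP70, by -2.83 ± 0.36.

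The series was made to study oxidative stress, and in its superoxide and peroxide list 10 of 15 genes fell and 1 rose (median -1.31). TSA1, the abundant cytosolic peroxiredoxin, read 11.86, 12.61 and 12.28 at 0 h and 10.18, 9.80 and 9.58 at 30 h (-2.40 ± 0.24, adjusted p = 1.56e-07). TSA2, the inducible peroxiredoxin, rose from 6.36, 8.36 and 8.12 to 9.18, 9.63 and 9.76 (1.91 ± 0.44). SOD1, the cytosolic superoxide dismutase, differed by -2.13 ± 0.36 and its copper chaperone CCS1 by -3.29 ± 0.49. YHB1, the flavohemoglobin that removes nitric oxide, differed by -4.34 ± 0.48. SOD2, the mitochondrial enzyme, did not pass (0.55 ± 0.49) except after quantile normalization (1.07), nor did CTT1, the cytosolic catalase (-0.53 ± 0.33), which passed at -1.05 without 0 h array A. For thioredoxin, glutaredoxin and glutathione 13 of 21 fell and 3 rose, with the glutaredoxin GRX1 at -3.26 ± 0.33 and SRX1, which repairs oxidized peroxiredoxins, at 1.55 ± 0.35.

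**Figure D5:**
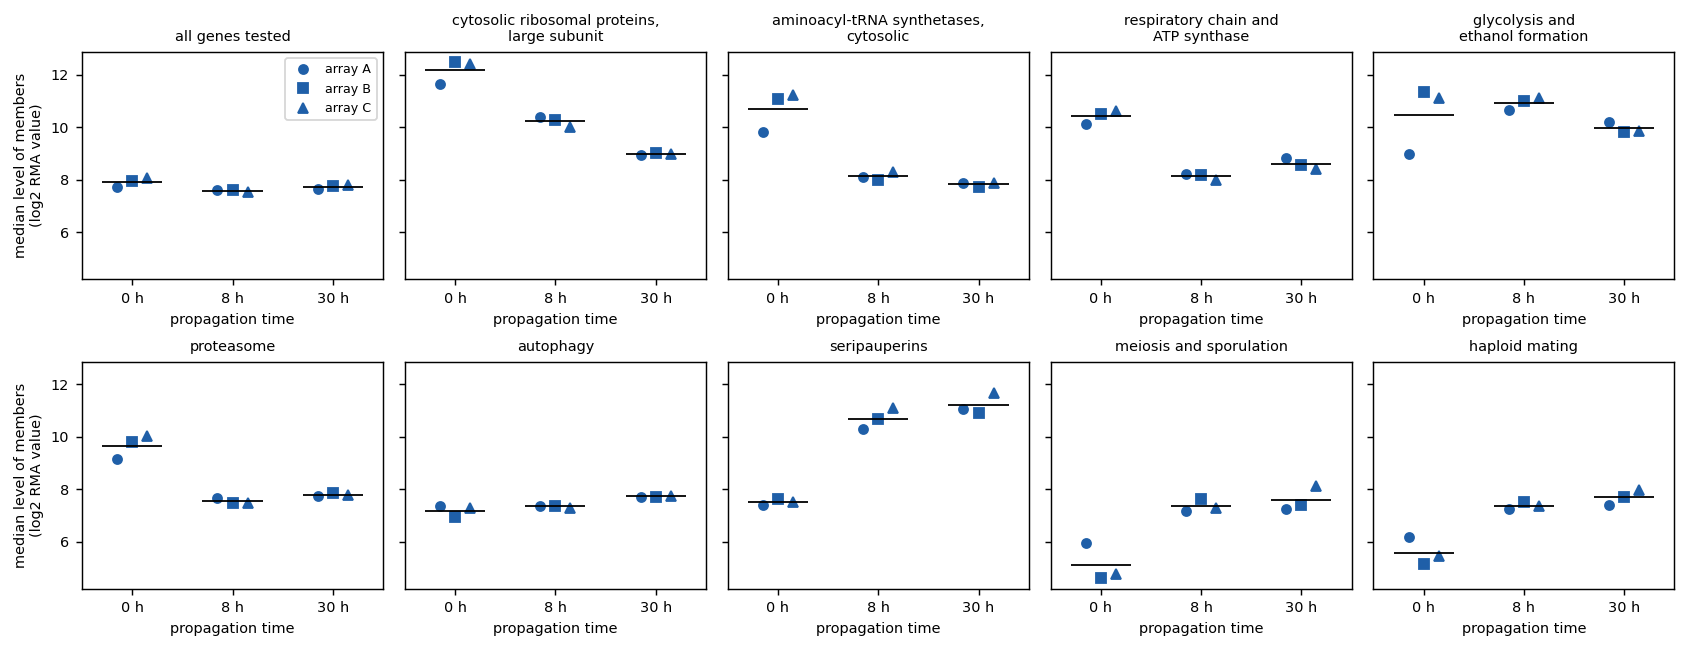
Median log2 RMA value over all genes and the members of 9 lists on each propagation array at 0, 8 and 30 h; symbols mark arrays A, B and C and lines mark the mean of the 3 array medians. Large subunit ribosomal protein genes step down at both intervals, and 0 h array A is low for glycolysis. Respiratory chain and proteasome genes are lowest at 8 h, as are all genes. The median difference from 8 h to 30 h was 0.53, 0.20 and 0.16 for these 3.

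The 2 routes of protein breakdown differed in direction. Of 34 proteasome genes 27 fell and 3 rose (median -1.83), or 29 and 2 without 0 h array A, and the median level was 9.15, 9.79 and 10.03 at 0 h against 7.75, 7.85 and 7.79 at 30 h. RPN9, of the regulatory lid, read 10.22, 10.56 and 10.75 at 0 h and 6.34, 6.22 and 6.74 at 30 h (-4.08 ± 0.25, adjusted p = 1.26e-09). PRE9, an alpha ring subunit, was bounded at 30 h and was at least 19.6-fold lower, whereas PRE7, a beta ring subunit, rose by 1.20 ± 0.32. Of 33 autophagy genes 19 rose and 6 fell (median 1.02), the falls being 3 without 30 h array C and 4 without 0 h array A. The medians were 7.35, 6.94 and 7.27 at 0 h and 7.72, 7.72 and 7.76 at 30 h.

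Within autophagy, genes of the ubiquitin-like conjugation system moved apart. ATG10, the conjugating enzyme for ATG12, read 8.53, 7.50 and 7.55 at 0 h and 10.96, 10.44 and 10.61 at 30 h (2.81 ± 0.29, adjusted p = 3.06e-07). ATG12, the conjugated protein, rose by 2.31 ± 0.31, and ATG16, which joins the conjugate, was bounded at 0 h but above the bound on only 2 of 3 arrays at 30 h. ATG5, the acceptor of ATG12, went from 8.27 to 8.41 down to 6.05 to 6.84 (-1.77 ± 0.27). ATG17, the scaffold that assembles the starting complex under starvation, read 5.37, 5.17 and 5.48 at 0 h, 5.50 to 6.20 at 8 h and 7.22, 7.28 and 6.91 at 30 h. It rose by 1.80 ± 0.25 against 0 h and by 1.35 against 8 h, where array C (5.50) lay under the other yeast's 95th percentile of 5.63. ATG22, a vacuolar amino acid exporter, rose by 2.76 ± 0.24. VBA2, a vacuolar basic amino acid transporter outside that list, rose by 1.84 ± 0.26 and 1.29.

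The vacuolar proton pump, which acidifies the compartment where this breakdown ends, had 15 of 20 genes lower and none higher (median -1.91), except 1 with array weights or without 30 h array A. VMA4 read 9.97, 11.29 and 11.29 at 0 h and 6.34, 5.52 and 5.05 at 30 h (-5.21 ± 0.41), and VMA10 went from 11.93 to 12.15 down to 9.15 to 9.26 (-2.83 ± 0.21). Both encode subunits of the peripheral stalks.

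Sterol genes, several of whose enzymes use oxygen, mostly fell. Of 24 ergosterol genes 18 fell and none rose (median -1.68), and 23 fell without 0 h array A (median -2.56). ERG8, phosphomevalonate kinase, read 9.98, 10.29 and 10.60 at 0 h and 5.99, 5.29 and 5.64 at 30 h (-4.65 ± 0.23, adjusted p = 2.15e-10). ERG3, the C-5 desaturase, differed by -4.26 ± 0.42. For fatty acid synthesis 8 of 19 fell and 2 rose, with 13 falling without 0 h array A. ACB1, the acyl-CoA binding protein, differed by -3.72 ± 0.25 and -0.90 against 8 h, and ACC1, acetyl-CoA carboxylase, by -1.76 ± 0.30 and -1.53. ELO1, a medium-chain elongase, rose by 1.95 ± 0.30. Of 33 sphingolipid and phospholipid genes 12 fell and 6 rose, with 19 falling without array A. Peroxisome and fatty acid oxidation genes leaned up, 14 of 33 against 8, among them OAF1 (2.42 ± 0.25) and PIP2 (2.22 ± 0.42), the paired oleate activators.

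Seripauperins rose nearly as a family. Of 13 genes 12 rose and none fell (median 3.59), and the list median went from 7.42, 7.65 and 7.51 at 0 h to 11.06, 10.90 and 11.67 at 30 h. PAU24 read 6.90, 6.94 and 6.70 at 0 h and 11.18, 11.01 and 12.03 at 30 h (4.56 ± 0.35, adjusted p = 9.51e-09). PAU3 was bounded at 0 h and was at least 10.5-fold higher, and PAU23 did not pass. PAU5, studied for its induction in wine fermentation, went from 8.44, 8.05 and 7.66 to 9.90, 9.49 and 9.77 (1.67 ± 0.25). Their sequences are near identical, so these 12 calls are not 12 separate measurements.

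The wider list of hypoxic genes also holds the seripauperin genes PAU23 and PAU24. It had changes in both directions, as did all genes (28.6% higher and 38.7% lower). Of its 25 members 8 rose, PAU24 among them, and 6 fell (median -0.02), whereas 7 rose and 9 fell without 0 h array A (median -0.17). AAC3, the ADP/ATP carrier isoform of anaerobic cells, read 6.91, 5.94 and 6.44 at 0 h and 10.26, 9.92 and 9.94 at 30 h (3.61 ± 0.27, adjusted p = 8.17e-09). PDR11, a sterol uptake transporter, rose by 3.03 ± 0.22 and TIR2, a wall mannoprotein, by 2.55 ± 0.40. SUT1, a regulator of sterol uptake, differed by -1.94 ± 0.31. The heme list, which is not limited to synthesis enzymes, was split at 5 up and 5 down of 14. The hypoxic rises and the heme falls are near the shares of all genes and say nothing about their lists. HEM15, ferrochelatase, was at 2.26 ± 0.22 and HAP1, the heme-responsive activator, at -2.40 ± 0.32. Without 0 h array A the heme split was 3 up and 6 down, and without 30 h array B 3 rose.

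Nutrient uptake lists held large changes of single genes in both directions. Nitrogen scavenging had 13 of 47 higher and 12 lower, phosphate starvation 7 of 27 and 6, zinc 9 of 19 and 6, and iron and copper 7 of 41 and 13. Over all genes 28.6% were higher and 38.7% lower, so the nitrogen and phosphate rises say nothing about their lists. Without 0 h array A the nitrogen counts turned to 14 higher and 15 lower, the phosphate counts to 8 and 9, and the zinc counts to 7 each. GDH2, which releases ammonium from glutamate, read 10.19, 10.10 and 10.74 at 0 h and 6.49, 6.20 and 6.20 at 30 h (-4.04 ± 0.27), and MEP3, an ammonium permease, rose by 2.31 ± 0.22. GIT1, a glycerophosphoinositol permease, read 6.25, 4.29 and 4.73 at 0 h and 10.39, 9.82 and 10.38 at 30 h (5.10 ± 0.36), and PHO89, a sodium-phosphate cotransporter, rose by 2.22 ± 0.26. VTC1, of the polyphosphate polymerase, differed by -2.63 ± 0.23. ZRC1, which stores zinc in the vacuole, read 9.43, 11.83 and 11.83 at 0 h and 6.61, 7.08 and 7.32 at 30 h (-4.03 ± 0.47). FRE7, a copper-regulated reductase, rose by 3.69 ± 0.24 and FET3, the iron uptake oxidase, differed by -2.26 ± 0.36.

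Vitamin synthesis leaned up, with 13 of 21 thiamine and pyridoxine genes higher and 5 lower (median 0.84). THI2, a thiamine activator, read 6.39, 6.27 and 6.56 at 0 h and 8.48, 8.79 and 8.50 at 30 h (2.18 ± 0.23, adjusted p = 2.92e-07). SNZ1, of pyridoxine synthesis and a stationary phase gene, differed by -2.86 ± 0.39. The 5 falls of this list became 2 in a fit of the 6 arrays alone, after either rescaling, or without 0 h array B, 0 h array C or 30 h array B, and 3 without 30 h array C. Among acetate and ester genes 14 of 26 fell and 5 rose. EEB1, which makes fatty acid ethyl esters, differed by -2.62 ± 0.26, ACS2, the main acetyl-CoA synthetase in glucose, by -2.55 ± 0.47, and ARO10, the decarboxylase of fusel alcohol formation, rose by 2.23 ± 0.30. Glycerol and osmotic genes had 12 of 24 lower and 5 higher, with GPD1, glycerol-3-phosphate dehydrogenase, at -1.88 ± 0.38 and STL1, the glycerol importer, at 2.78 ± 0.36.

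Cell cycle genes went both ways. Of 28 cyclin and switch genes 11 rose and 6 fell (median 0.35). CLN2, the G1 cyclin that commits cells to division, read 6.56, 7.14 and 7.49 at 0 h, 10.19, 11.37 and 11.74 at 8 h, and 11.29, 11.81 and 12.53 at 30 h (4.81 ± 0.37, adjusted p = 9.77e-09). Its 8 h and 30 h arrays overlapped, with 0.77 between their means (not passing). FAR1, an inhibitor of G1 cyclin kinase, rose by 3.21 ± 0.24, with 2 of its 0 h arrays at or under the bound, and NDD1, an activator of the G2 and M phase genes, by 3.81 ± 0.35. CLB3, a B-type cyclin, differed by -1.95 ± 0.24.

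Histone genes fell in 7 of 10 cases and rose in 2 (median -1.28), and 3 of them also fell between 8 h and 30 h. HTB1, a copy of H2B, read 12.38, 11.56 and 11.87 at 0 h, 10.71, 11.42 and 10.80 at 8 h, and 9.80, 10.22 and 9.95 at 30 h (-1.95 ± 0.26, adjusted p = 5.8e-06). HHF1, a copy of H4, differed by -1.87 ± 0.26 and -1.22 against 8 h. CSE4, the centromeric H3 variant, rose by 1.46 ± 0.29. Of 45 DNA replication genes 22 fell and 8 rose, with MCM5, a helicase subunit, bounded at 30 h and at least 7.38-fold lower, and CDC6, which loads that helicase, higher by 2.06 ± 0.35. In the mitosis list 17 of 39 rose and 11 fell. SLI15, a scaffold of the chromosomal passenger complex, rose by 2.86 ± 0.34 and the cohesin subunit gene MCD1 by 2.49 ± 0.28.

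Chromosome and telomere genes were among those that rose against both earlier times. RIF2, which limits telomere length, was bounded at 0 h and read 5.51, 4.70 and 5.69 at 8 h and 6.35, 6.71 and 7.02 at 30 h. It was at least 3.49-fold higher than at 0 h (adjusted p = 2.09e-08) and rose by 1.39 log2 units against 8 h. BRN1, a condensin subunit, was also bounded at 0 h and was at least 1.89-fold higher, with 1.41 against 8 h. Its 8 h values of 4.87, 4.30 and 4.03 all lay under the other yeast's 95th percentile there (5.45, 5.3 and 5.63). The 1.41 is thus a fitted value against a level not above that signal. For RIF2 the 8 h value on array B lay under it too. JNM1, of the dynactin complex that positions the spindle, rose by 1.65 ± 0.42 and 1.53. Its 8 h value on array C, 5.63, equalled that percentile to 2 decimals.

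Cell wall, secretion and bud growth lists held more falls than rises. Of 44 wall genes 22 fell and 4 rose, the latter 7 after recentring and 8 after quantile normalization, and 29 fell and 6 rose without 0 h array A. CCW12, a major wall mannoprotein, read 11.83, 12.94 and 12.84 at 0 h, 12.16, 12.16 and 12.57 at 8 h, and 11.14, 10.55 and 10.39 at 30 h (-1.84 ± 0.28, adjusted p = 2.19e-05), with -1.60 against 8 h. TIP1, a wall mannoprotein induced by cold, differed by -2.03 ± 0.40 and -2.51, so both were below either earlier time, and both were picked out after their values were seen. CWP1, of the birth scar wall, was bounded at 30 h and was at least 14.7-fold lower. GAS4, a glucan enzyme of spore wall formation, read 6.20, 5.14 and 5.10 at 0 h and 10.65, 10.72 and 10.77 at 30 h (5.23 ± 0.29). Among 52 secretory pathway genes 30 fell and 2 rose, the latter 4 after recentring and 7 after quantile normalization. SRP14, of the particle that targets new chains to the membrane, differed by -4.42 ± 0.25. OST6, of the oligosaccharyltransferase, rose by 3.10 ± 0.26. Of 41 actin, septin and bud growth genes 19 fell and 7 rose, with profilin, PFY1, at -4.28 ± 0.35 and the bud site landmark BUD3 at 3.70 ± 0.32.

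RNA handling lists held changes in both directions, as did all genes (28.6% higher and 38.7% lower). The mRNA decay counts, the splicing rises and the signalling and glycan falls given below are near those shares. They say nothing about their lists. Of 54 splicing genes 15 fell and 14 rose, of 35 mRNA decay genes 13 fell and 9 rose, and of 46 nuclear pore and transport genes 23 fell and 3 rose. Without 0 h array A 5 nuclear pore genes rose. SNU13, shared by the spliceosome and the box C/D particles, read 12.48, 12.36 and 12.51 at 0 h and 7.79, 8.00 and 8.12 at 30 h (-4.48 ± 0.21, adjusted p = 1.09e-10). SKI6, of the RNA exosome, differed by -3.68 ± 0.29, and EDC1, a decapping enhancer, rose by 3.66 ± 0.39. Signalling genes of protein kinase A and TOR had 16 of 42 lower (10 in a fit of the 6 arrays alone) and 7 higher, with RAS2, which activates adenylate cyclase, at -2.38 ± 0.24, the glucose receptor gene GPR1 at -2.24 ± 0.22, and CRF1, a corepressor of ribosomal protein genes with 2 of its 0 h arrays at or under the bound, at 2.43 ± 0.25. Glycan synthesis genes had 14 of 38 lower (23 with array weights) and 9 higher (20 and 6 without 0 h array A). Of 7 flocculin and adhesin genes 1 rose, a call lost without 0 h array B or C or 30 h array B or C, while 1 fell without 0 h array A or 30 h array C, and of 8 subtelomeric COS and YRF1 genes 3 rose.

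Other genes with large rises belonged to no metabolic list above. They were in the top 25% of mean level over the 6 arrays, which includes the 30 h arrays where they are high. At 0 h alone the 4 genes named here averaged 6.66 to 7.89, where the median of all genes was 7.74 to 8.05. CSM2, of a complex that assists recombination repair, read 7.36, 6.65 and 6.58 at 0 h and 11.09, 11.13 and 11.72 at 30 h (4.45 ± 0.27, adjusted p = 1.26e-09). PDR18, a sterol-related ABC transporter, rose by 4.39 ± 0.34, SAP4, a partner of the phosphatase SIT4, by 4.27 ± 0.25, and PTC6, a mitochondrial protein phosphatase, by 3.92 ± 0.32. Each of the 4 was already high at 8 h, and none of their differences between 8 h and 30 h passed.

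Genes that mark other cell states were high on the 30 h arrays as well. Of 13 meiosis and sporulation markers 10 rose and none fell (median 2.62), and of 14 haploid mating markers 11 rose and none fell (median 2.45). The meiosis median level was 5.96, 4.61 and 4.76 at 0 h and 7.25, 7.42 and 8.13 at 30 h, and the mating median 6.17, 5.15 and 5.45 and then 7.40, 7.71 and 7.96. SPS4, a middle sporulation gene, read 5.36, 3.94 and 4.21 at 0 h and 9.17, 9.63 and 10.54 at 30 h (5.27 ± 0.39, adjusted p = 7.63e-09), and 2 of its 0 h values lay at or under the bound. STE3, the receptor for a-factor that alpha cells make, read 5.69, 4.93 and 4.73 at 0 h and 9.22, 9.92 and 10.68 at 30 h (4.82 ± 0.33). STE6, the a-factor exporter of a cells, rose by 4.23 ± 0.31, so markers of both mating types were higher together. IME2, a meiosis kinase, did not pass at -0.22, nor did AGA1, an agglutinin anchor, at -0.26. No member of either list passed between 8 h and 30 h. Without the dimmest 25% of genes, 1 of the meiosis rises and 3 of the mating rises were left to count, because most of these markers were filtered out. These markers moved together with the hexose transporter, seripauperin, autophagy and other rises above, and their part in those results was not tested.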

How the data were processed

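RNA of the lager yeast was hybridized to Affymetrix yeast arrays. The deposited values are log2 expression summaries made by the authors with RMA, per the submitters' processing notes, and ran from 2.17 to 14.07. Which arrays were normalized together is not given in the sources used here. Of 10928 probe sets 5498 were annotated with an S. cerevisiae gene. For the 47 genes with several, the probe set with the highest mean was kept, leaving 5449 genes, of which 115 are read by probe sets marked as shared with similar sequences. The 1746 probe sets of the other yeast are those annotated with a gene ID outside the S. cerevisiae reference. For 12 probe sets an old symbol was updated. The array does not separate the parental genomes of hybrid lager yeast.

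limma 3.58.1 (lmFit, eBayes) in R 4.3.3 fitted 6 group means to all 17 arrays. Contrasts were two-sided, adjusted by Benjamini-Hochberg over 5449 genes, with a threshold of 0.05. On simulated data of this contrast (5449 genes), 92 of 100 genes changed 4-fold and 32 of 100 changed 2-fold were called, with 10 unchanged genes called. Only those genes were changed in the simulation and its noise was independent between genes. In the data 67.3% of genes were called, so these rates do not carry over. No list was tested: the 60 lists are given by counts and medians, and 60 list names matched no tested gene. Members and lists were chosen with earlier results of these data known. Named genes have a standard name, pass, and show no overlap between 0 h and 30 h arrays. They include the 8 largest rises and falls in the top 25% of mean level over the 6 arrays, the 30 h arrays among them. They also include the 8 largest against both 0 h and 8 h, and up to 4 members per list plus the largest in the opposite direction. Further members were picked out after their values were seen, for their pattern or failure to pass. Among these were HXT1, HXT5, MAL11, SUC2, PAU5 and RPL34B. The number of arrays limits the precision. Letters A, B and C did not pair arrays of 0 h and 30 h (residual correlations 0.018, -0.014 and 0.014). Alternatives were other filters, scalings, weights, priors, probe sets and array subsets.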

Additional observations from a re-analysis of the deposited data

How the results depend on the processing

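Of 302 named genes that passed, 298 kept direction and call under every alternative run that tested them. The run without the dimmest 25% of genes tested only 264 of all 317 named genes, those that did not pass included. HXT9 reversed to -1.06 on its dimmer probe set, and COS6, COS9 and SPG4 lost their calls under some alternatives. Of genes that did not pass, TDH3 turned to -1.26 with array weights and ranged from -1.18 (without 0 h array A) to 0.78 with 1 array left out, and RPL42B and RPL20B turned to 0.62 and 0.56 after quantile normalization. The cause was not tested. The genes that changed between 30 h and 0 h numbered 3066 to 4203 over the alternatives that tested all genes. With 1 array left out they numbered 3418 to 4000, with 1422 to 1602 higher, 1890 to 2398 lower and 2935 to 3235 changed at least 2-fold. Leaving out the dimmest 25% of genes left 1026 higher, since fewer genes were tested. Of 3669 calls, 184 were lost without 0 h array A, none turned, and 515 were added. The share of changed genes that were higher was 42.5%, and 36.6% to 48.3% under the alternatives. The replicate block by letter gave 3794 changed genes, kept the call of every named gene that passed and added that of HSP26, but the letters share only a name. Between 30 h and 8 h, 273 genes changed, 514 with array weights, 698 without 0 h array A, 175, 153 and 149 without 30 h array A, B or C. Between 8 h and 0 h the count was 3364 to 3985 with 1 array of 0 h or 30 h left out, and 8 h arrays were not left out. Of 87 list counts of at least 4 members, 62 stayed within 1.5 times throughout. No detection calls were used, so signal near the bound is known only through probe sets of the other yeast.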
